A study of Mus musculus with 19 samples.

Results

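In mouse glial progenitor cells (GPC), 333 of 1367 peaks of the transcription factor SOX3 lay more than 100 kb from the transcription start site (TSS) of the gene the authors assigned to them and shared no base with a peak of SOX9 or NFIA. They were chosen from the deposited peak lists by these 2 criteria, distance and overlap, and made up 24.4% of all SOX3 peaks. They are called far SOX3-only peaks here, and the 274 genes assigned to them are called bordering genes. A bordering gene is a name attached to a peak by the authors, and whether the peak acts on that gene was not tested.

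SOX3 is an HMG-box factor of the SOXB1 group that keeps neural cells in a dividing progenitor state. SOX9 and NFIA are known for switching neural progenitors towards glia. SOX proteins bind short DNA motifs together with partner factors, and much of their binding lies in enhancers, which can act on genes over long stretches of chromatin and need not act on the nearest gene.

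Binding was measured by chromatin immunoprecipitation and sequencing (ChIP-seq), with 2 SOX3, 3 SOX9 and 2 NFIA samples behind 1 peak list per factor, all from GPC. RNA was sequenced from 4 GPC libraries and 3 libraries of glia, with 6897294 to 22439837 reads counted in genes per library. Both cell types came from mouse embryonic stem cells (ESC), and the labels name no genotype or strain. The protocol in the labels describes differentiation in N2B27 medium with 0.1 µM all-trans retinoic acid, magnetic sorting for the surface antigen A2B5 at day 8, and growth of the sorted GPC on fibronectin with EGF and FGF2 at 10 ng/ml. For glia the labels repeat that text, and the steps from GPC to glia are not given there. The antibody against SOX3 was the authors' own. Nothing in the labels says that replicates were separate cultures, and a p-value here reflects only the spread among these libraries, which may be technical. Sox3 itself stood at 66.6 to 122 RPKM (reads scaled by gene length and library size) in GPC and 29.3 to 46.6 in glia. The 122 was GPC replicate 3, and the other GPC libraries stood at 66.6 to 72.3. Sox9 stood at 52.5 to 62.7 RPKM in GPC and 75.2 to 76.4 in glia.

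The glia were checked against marker lists, by the summed RPKM of each list. All 14 tested oligodendrocyte markers rose, with sums of 119 to 145 in GPC against 1759 to 2513 in glia. Of 15 astrocyte markers 12 rose and 3 fell, with sums of 1138 to 1629 in GPC against 9260 to 11515 in glia. The astrocyte marker Aldh1l1 fell, with a log2 change of -1.19. All 10 mesenchyme markers rose as well, from sums of 170 to 180 to sums of 727 to 895, and 7 of 13 neuron markers rose, from 147 to 163 to 233 to 254. Of 11 progenitor markers 4 rose and 4 fell, with sums of 7055 to 7544 in GPC against 3402 to 3453 in glia. Most of the difference between these sums was that of Fabp7, at 5259 to 5799 RPKM in GPC and 1621 to 1688 in glia. Of 11 oligodendrocyte precursor markers 7 rose and 4 fell, with sums of 1785 to 1968 against 1257 to 1602. Of 3 tested endothelium markers 1 rose and 2 fell. Microglia markers summed to at most 2.24 in GPC and 8.84 in glia, with their defining marker Cx3cr1 at 0 in all 7 libraries. The 9 markers of pluripotent cells summed to 3.32 to 4.44 in GPC and 3.80 to 6.77 in glia, with Pou5f1 at 0 in all 7 libraries and Nanog at 0 to 0.492 RPKM in GPC and 0.159 to 1.003 in glia. GPC replicate 3 stood apart from the other GPC libraries: among tested bordering genes its value lay outside those of the other 3 in 83.1%, against 73.8% of all tested genes. In these bulk libraries fewer cells of a type and less RNA per cell cannot be told apart.

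The far SOX3-only peaks were narrow regions scattered over all autosomes. No peak fell on chromosome X, where the whole SOX3 list held 3. Their width had a median of 147 bp, with quartiles of 129 and 186 bp and a range of 69 to 1010 bp. SOX3-only peaks within 100 kb of their gene had a median of 162 bp. Far SOX3 peaks that shared bases with SOX9 or NFIA had a median of 224.5 bp, but a wider peak has more bases to share, so width and the overlap criterion are not independent. Only 24 far SOX3-only peaks were wider than 300 bp, and 8 of these were assigned to a single gene, Ighv1-73.

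The share of SOX3 peaks without SOX9 or NFIA was similar at both distances. Of 463 SOX3 peaks beyond 100 kb, 333 (71.9%) shared no base with the other factors, and of 904 peaks within 100 kb, 668 (73.9%) did not. Among the 130 far peaks left out, 101 shared bases with SOX9, 42 with NFIA and 13 with both. Lack of a shared base did not always mean a distant neighbour. The nearest NFIA peak was a median of 69.4 kb away and within 1 kb for 8 far SOX3-only peaks, and the nearest SOX9 peak was a median of 324 kb away and within 1 kb for 1.

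Peaks close to the limits show how sharp the criteria are. Just beyond 100 kb lay peaks assigned to Cobll1 at 100394 bp, Kdr at 100421 bp and Fam78b at -100686 bp, where a minus sign marks a peak upstream of the TSS. Just within it lay peaks at C230081A13Rik (99302 bp), Arhgap32 (-99601 bp) and Tspan3 (-99807 bp). A peak assigned to Epha4 missed the nearest NFIA peak by 47 bases, while peaks at Kat6b and Tlr4 were left out for 4 shared bases.

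Most far SOX3-only peaks lay in the nearer part of the range. Their median distance was 209 kb, 157 (47.1%) lay between 100 and 200 kb, 76 between 200 and 300 kb, and 42 between 300 and 500 kb. A further 43 lay between 500 and 1000 kb and 15 between 1000 and 2000 kb. Median width was 158 bp in the nearest of these bands and 129 bp in the most distant. Downstream of the TSS lay 208 peaks and upstream 125, so that 62.5% were downstream. The share was 58.7% without the peaks at Ighv1-73 and Adam6a, 53.1% for SOX3-only peaks within 100 kb and 59.2% for far shared peaks.

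**Figure D1:**
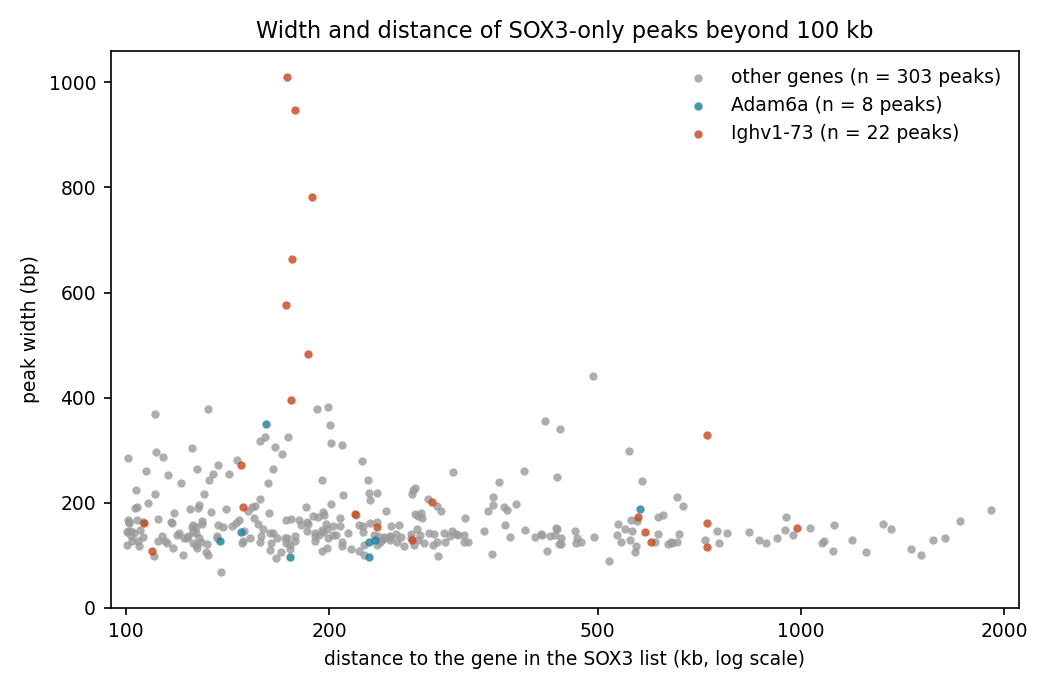
Width in bp against distance to the assigned TSS in kb (log axis) for the 333 far SOX3-only peaks, with the peaks at Ighv1-73 and Adam6a marked apart from all others. Peaks elsewhere reach at most 441 bp at every distance, and the widest peaks all belong to Ighv1-73.

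As the plot of width by distance shows, all peaks wider than 441 bp were assigned to Ighv1-73. The widest peak elsewhere, at chr6:111731848-111732288 (mm9, as are all positions here), was assigned to Lmcd1, a LIM-domain transcriptional cofactor.

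The most distant peaks bordered genes of adhesion and the cytoskeleton, among others. The peak at chr1:103580520-103580705 lay 1911 kb downstream of the TSS of Cntnap5b, a contactin-associated adhesion protein. Cobl, an actin nucleator, had peaks 1323 and 1717 kb upstream, the farther at chr11:14082184-14082348. Pcdh7, a protocadherin, had a peak 1634 kb upstream at chr5:56476365-56476497. The other 2 of the 5 most distant were 1567 kb upstream of 1700009N14Rik and 1508 kb upstream of G6pd2, a second glucose-6-phosphate dehydrogenase gene.

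Peaks were spread thinly over the bordering genes, with a single dense exception. Of 274 genes, 246 had 1 far SOX3-only peak, 23 had 2, Fam86 had 3, Efna5 and Gm11678 had 4, Adam6a had 8 and Ighv1-73 had 22. The 28 genes with 2 or more together held 87 peaks. Several pairs were nearly adjacent, spanning 0.34 kb at Fam78b, 0.348 kb at Irx1, 0.401 kb at Klf12 and 0.475 kb at Wwc1. At Efna5, by contrast, the 4 peaks were listed 127, 132 and 1359 kb downstream and 290 kb upstream of a TSS. Their positions show that these distances were taken from different start sites. The peaks listed at 127 and 132 kb, chr17:63103334-63103452 and chr17:62823836-62823935, were not close neighbours.

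The dense exception was the immunoglobulin heavy chain locus, where B cells assemble antibody genes. The 30 peaks at Ighv1-73, an immunoglobulin V segment, and Adam6a, an ADAM-family gene that lies within that locus, fell in chr12:114919936-116922565, a stretch of 2.00 Mb. It held 9.01% of all far SOX3-only peaks, while the rest of chromosome 12 held 21. The full SOX3 list had 32 peaks there and 59 on the rest of the chromosome. NFIA also had 27 peaks in the stretch, against 526 on the rest of chromosome 12, whereas SOX9 had 3 against 102.

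Within the stretch the peaks bunched. A run of 7 peaks at chr12:116839914-116856853, within 16.9 kb, had widths of 396 to 1010 bp and a median of 664 bp. An eighth SOX3 peak of 362 bp in the same run shared bases with NFIA and so was left out. Across the whole set, linking peaks up to 10 kb apart gave 9 clusters with 25 peaks, of which 17 were at Ighv1-73 or Adam6a. Adam6a had 0 reads in all 7 RNA libraries, and Ighv1-73 had no match in the expression table. The input samples were not analysed here, so the signal at this locus without the SOX3 antibody was not tested. Leaving both genes out gave 303 peaks at 272 genes with the median width still at 147 bp.

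Other SOX3 and SOX9 peaks were assigned to some of the bordering genes as well. SOX9 peaks were assigned to 135 of the 274 genes (210 SOX9 peaks in all), 35 had a further SOX3 peak within 100 kb, and 26 had a SOX3 peak shared with SOX9 or NFIA. None of these applied to 122 genes. The shares over all genes and over the other SOX3 sets were not computed, so these counts do not set the bordering genes apart. No bordering gene had a SOX3 peak within 1 kb of its TSS. The whole SOX3 list holds only 33 such peaks, and whether bordering genes differ from others in this was not tested. SOX9 had 5 peaks that close, at A830018L16Rik, Fam78b and Pde3a. The NFIA list assigns no genes.

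The bordering genes that matched the expression table reached 1 RPKM in GPC more often than genes of the whole table, as did the other SOX3 sets. Of 274 names, 248 matched 1 gene of the expression table, 24 had no match and 2 matched repeated symbols. In GPC 174 of the 248 (70.2%) averaged 1 RPKM or more, against 52.4% of the 22958 genes in the table. The share was 69.9% for genes with a SOX3-only peak within 100 kb, 70.4% with far shared peaks and 78.2% with near shared peaks. Names of microRNAs and noncoding genes made up 17.3% of the table, while only 11 of 32 such bordering names could be matched. In single libraries 170 to 176 bordering genes reached 1 RPKM in GPC and 182 to 184 in glia, without overlap. Over the whole table the numbers were 11984 to 12007 in GPC and 12567 to 12593 in glia, likewise without overlap. On average 183 bordering genes stood at 1 RPKM or more in glia. The median level was 6.33 RPKM in GPC and 6.47 in glia, whereas genes with near SOX3-only peaks had a median of 8.46 in GPC. At 10 RPKM or more stood 99 genes (39.9%), against 46.1% for the near set. Another 16 genes (6.45%) had 0 reads in all libraries, against 22.1% of the table.

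Between GPC and glia the bordering genes changed about as often as genes in general. Read counts passed the filter on low counts for 201 of the 248, and 47 fell under it. Of the 201, 77 rose in glia (38.3%, against 35.2% of all 13588 tested genes), 63 fell (31.3%, against 35.2%) and 61 did not pass the test, by the quasi-likelihood test of edgeR at a Benjamini-Hochberg adjusted p below 0.05. In either direction 140 changed (69.7%, against 70.4%). The values of the 4 GPC and 3 glia libraries did not overlap for 134 (66.7%, against 69.1%). The median log2 change was 0.09, with quartiles of -0.45 and 0.83, against 0.00 for all genes tested.

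The shares with changes of 2-fold or more lay above those of all genes tested, and they varied among the SOX3 sets. At 2-fold or more 42 bordering genes rose (20.9%, against 16.5%) and 27 fell (13.4%, against 9.24%). Genes with near SOX3-only peaks gave 19.9% and 10.2%, so the rises were close to those of the near set. Genes with near shared peaks gave 19.7% and 16.2%, and genes with far shared peaks gave 15.3% and 10.6%. At any size the near SOX3-only set counted 153 rises (38.1%) and 149 falls (37.1%) among 402 tested genes. Genes with far shared peaks counted 28 (32.9%) and 35 (41.2%) among 85. No difference between these sets, or between them and all genes, was tested.

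**Figure D2:**
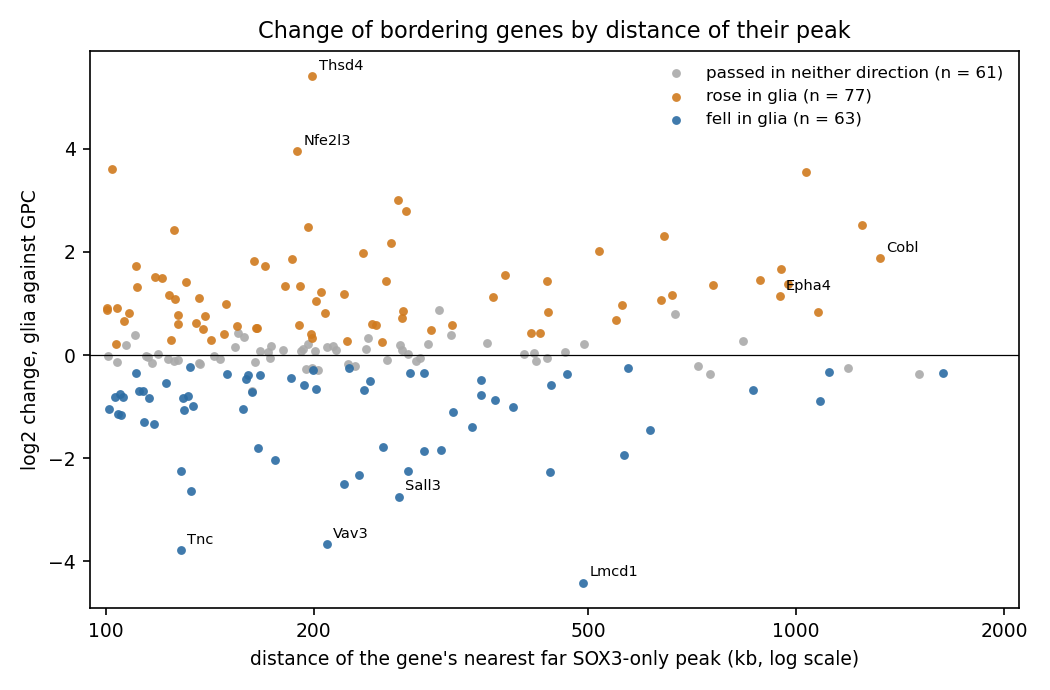
Log2 change from GPC to glia (edgeR) against the distance of the nearest far SOX3-only peak in kb (log axis) for the 201 tested bordering genes. Points lie on both sides of 0 from 100 to 200 kb, from 200 to 500 kb and beyond 500 kb, where 15 genes rose and 7 fell.

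As the plot of change by distance shows, genes at the longest distances leaned upwards. Of all 13588 genes tested 35.2% rose and 35.2% fell. Among 101 tested genes whose nearest far peak lay 100 to 200 kb away, 39 rose (38.6%) and 32 fell (31.7%). Their median log2 change was 0.05. Between 200 and 500 kb 23 of 72 rose (31.9%) and 24 fell (33.3%), with a median of 0.07. Beyond 500 kb 15 of 28 rose and 7 fell, with a median of 0.82, and 12 of the rises reached 2-fold. The largest rises beyond 500 kb were 3.56 on the log2 scale for 2810032G03Rik and 2.53 for Lrp1b, a lipoprotein receptor relative with few reads in GPC, and the largest falls were -1.93 for Igfbp3 and -1.44 for Cenpq, a kinetochore protein named after its value was seen. The most distant tested genes, Pcdh7 at 1634 kb and G6pd2 at 1508 kb, had log2 changes of -0.34 and -0.36. Genes beyond 1000 kb went both ways, and a trend with distance was not tested.

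Bordering genes with and without other SOX binding are given side by side. Of 85 tested bordering genes with no other SOX3 peak and no SOX9 peak, 34 rose and 21 fell, with a median log2 change of 0.19. Of 116 with such a peak, 43 rose (37.1%) and 42 fell (36.2%), with a median of -0.02. Genes with downstream peaks only gave 48 rises (40.3%) and 34 falls (28.6%) among 119. Genes with upstream peaks only gave 28 and 28 among 78 (35.9% each). No difference between these groups was tested.

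Genes were also grouped by name. Names of microRNAs and noncoding genes made up 32 bordering genes with 36 peaks (11.7%, against 17.3% of the table), of which 2 could be tested. The SOX, POU, homeobox, FOX, bHLH and other neural transcription factor families supplied 30 bordering genes with 35 peaks, or 10.9% of the bordering genes, against 1.86% of the table and 4.29% for genes with near SOX3-only peaks. In GPC 26 of the 30 averaged 1 RPKM or more. Of 29 tested, 7 rose, 10 fell and 12 did not pass the test. Over the same families among all genes measured 94 of 287 tested rose (32.8%) and 99 fell (34.5%). Whether the class is more frequent here than among other distant peaks was not tested.

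Sall3 and Klf9 had the largest falls of this class. Sall3, a zinc finger repressor, stood at 75.7, 74.3, 70.7 and 77.3 RPKM in GPC replicates 1 to 4 and at 11.2, 10.8 and 12.02 in glia. All GPC values lay far above all glia values, and Sall3 fell by 2.74 ± 0.07 (SE) on the log2 scale (edgeR quasi-likelihood test, adjusted p = 2.04e-09). Its peak lay 266 kb upstream. Klf9, a Krüppel-like factor induced by glucocorticoid and thyroid hormone, stood at 24.8, 26.7, 21.9 and 28.5 RPKM in GPC and 5.81, 4.70 and 5.39 in glia, again without overlap, and fell by 2.27 ± 0.11 on the log2 scale (edgeR quasi-likelihood test, adjusted p = 6.8e-08).

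Smaller falls took in POU and ETS factors. Pou3f3, a POU factor and known partner class of SOX proteins in neural cells, stood at 66.2 to 71.9 RPKM in GPC and 30.5 to 37.8 in glia. The groups did not overlap, and Pou3f3 fell by 1.04 ± 0.08 on the log2 scale (edgeR quasi-likelihood test, adjusted p = 1.66e-06). Ets1, an ETS-domain activator with 2 peaks 367 and 624 kb away, stood at 17.8 to 20.1 RPKM in GPC and 10.2 to 11.96 in glia and fell by 0.86 ± 0.08 on the log2 scale (edgeR quasi-likelihood test, adjusted p = 3.56e-06). Tle3, a Groucho-type corepressor, fell by 0.45 ± 0.06 on the log2 scale (edgeR quasi-likelihood test, adjusted p = 5.06e-05), without overlap. Klf12, Klf6 and Gli3 fell by 0.25, 0.23 and 0.38 on the log2 scale, but their groups overlapped. The call for Klf12 was lost without GPC replicate 1, 2 or 4 or glia replicate 3, that for Klf6 without any of these or glia replicate 1, and both with upper quartile scaling or a filter of at least 50 counts in 3 libraries. The Klf6 call was also lost with replicate number entered as a block. The call for Gli3 was lost without glia replicate 1 or 3.

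Of the factors that rose, Irx1, an Iroquois homeobox factor, was the highest in GPC. Twist1, a bHLH factor of mesenchyme, stood at 2.91, 3.71, 3.13 and 3.19 RPKM in GPC and 7.72, 6.67 and 8.04 in glia, and rose by 1.19 ± 0.13 on the log2 scale (edgeR quasi-likelihood test, adjusted p = 2.00e-05). Mesenchyme markers rose beside it, as given above, and their part in the result was not tested. Foxp1 (2.00 to 2.77 RPKM in GPC, 4.25 to 5.44 in glia) and Zbtb20 (1.13 to 1.58 and 2.42 to 4.49), a zinc finger factor of astrocyte development, also rose without overlap, Zbtb20 by 1.34 ± 0.21 on the log2 scale. Pou4f1 and Gata3 rose from at most 0.218 and 0.214 RPKM in any GPC library to at most 0.877 and 0.496 in glia. The call for Gata3 was lost without glia replicate 1 and with replicate number entered as a block.

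Both SOX genes with a far SOX3-only peak were well expressed and did not pass the test. Sox4, a SOXC factor of neural differentiation with a peak 417 kb away, stood at 146, 136, 213 and 156 RPKM in GPC and 189, 144 and 181 in glia. The groups overlapped, with a log2 change of 0.04 ± 0.17 (edgeR quasi-likelihood test, adjusted p = 0.827). Sox6, a SOXD factor active in the oligodendrocyte lineage with a peak 493 kb away, stood at 26.7 to 30.6 RPKM in GPC and 29.5 to 39.1 in glia (log2 change 0.21 ± 0.09, edgeR quasi-likelihood test, adjusted p = 0.0570). Tcf4, a class I bHLH partner at 61.8 to 68.6 RPKM in GPC and 55.1 to 63.0 in glia, did not pass either.

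Surface, guidance and channel genes supplied 27 bordering genes with 33 peaks, or 9.85% of the bordering genes, against 2.39% of the table and 3.22% for the near set. Of 22 tested, 12 rose, 6 fell and 4 did not pass the test. Over the same families among all genes measured 219 of 388 tested rose (56.4%) and 91 fell (23.5%). Neuron markers rose in the same comparison, as given above, and their part in these rises was not tested. Whether these families are more frequent here than among other distant peaks was not tested either.

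All 4 axon guidance genes tested rose, and among all genes measured 40 of 66 tested in that family rose (60.6%). Epha4, an ephrin receptor tyrosine kinase, stood at 5.73, 5.37, 4.32 and 5.02 RPKM in GPC and 11.1, 12.3 and 11.1 in glia, and rose by 1.14 ± 0.10 on the log2 scale (edgeR quasi-likelihood test, adjusted p = 2.44e-06). Its relative Epha7 rose from 1.26 to 1.72 RPKM to 3.10 to 4.07, likewise without overlap. Efna5, an ephrin ligand of such receptors with 4 peaks, stood at 0.657, 0.736, 1.34 and 0.795 RPKM in GPC and 1.55, 1.89 and 1.41 in glia, with GPC replicate 3 close to the lowest glia value. It rose by 0.78 ± 0.25 on the log2 scale (edgeR quasi-likelihood test, adjusted p = 0.0155), a call lost without glia replicate 2 (adjusted p = 0.0548). Rgma, a repulsive guidance ligand, was much more abundant, at 118 to 194 RPKM in GPC and 187 to 239 in glia. Its groups overlapped, and its call (log2 change 0.58 ± 0.18, edgeR quasi-likelihood test, adjusted p = 0.0183) was lost without glia replicate 1 or 3.

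Of 9 tested adhesion molecules 6 rose and 1 fell, and among all genes measured 43 of 79 tested in that family rose (54.4%) and 18 fell (22.8%). Ntm, a neurotrimin of the IgLON family of membrane-anchored adhesion proteins, stood at 2.36, 2.64, 3.99 and 2.75 RPKM in GPC and 26.1, 22.4 and 25.9 in glia. It rose by 3.01 ± 0.16 on the log2 scale (edgeR quasi-likelihood test, adjusted p = 1.06e-07). Lsamp, of the same IgLON family, rose by 1.16 ± 0.21 on the log2 scale, Alcam by 1.46 ± 0.13, Lrrn3 by 1.35 ± 0.07 and Nrxn3 by 1.44 ± 0.24, each without overlap. Ncam1, the neural cell adhesion molecule, moved less, from 72.8 to 81.2 RPKM in GPC to 94.1 to 97.4 in glia. Chl1, a close homolog of L1, was the fall: it stood at 23.1, 24.6, 10.0 and 24.3 RPKM in GPC and 4.16, 5.25 and 3.28 in glia, and fell by 2.33 ± 0.35 on the log2 scale (edgeR quasi-likelihood test, adjusted p = 0.000564).

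The 4 cadherins and protocadherins all fell, whereas among all genes measured 49 of 83 tested in that family rose (59.0%) and 19 fell (22.9%). Cdh2, N-cadherin of neuroepithelial junctions, stood at 103, 109, 84.9 and 105 RPKM in GPC and 54.2, 50.8 and 50.5 in glia. It fell by 0.99 ± 0.09 on the log2 scale (edgeR quasi-likelihood test, adjusted p = 3.95e-06), without overlap. Cdh20 fell by 0.88 ± 0.13 on the log2 scale. Pcdh17 and Pcdh7 fell by 0.32 and 0.34, with overlapping groups. The call for Pcdh17 was lost without glia replicate 1 or 3, and that for Pcdh7 without GPC replicate 2 or 4 or glia replicate 2 or 3. The Pcdh7 call was also lost with replicate number entered as a block.

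Of the channels, Kcnj16, an inwardly rectifying potassium channel subunit found in astrocytes, stood at 6.94, 7.44, 8.08 and 8.19 RPKM in GPC and 28.7, 29.4 and 27.2 in glia. All glia values lay above all GPC values, and Kcnj16 rose by 1.86 ± 0.08 on the log2 scale (edgeR quasi-likelihood test, adjusted p = 2.29e-08). Kcnd3, a voltage-gated potassium channel, fell by 1.33 ± 0.08, from 24.1 to 26.98 RPKM in GPC to 8.26 to 9.74 in glia.

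Genes of the WNT, FGF, BMP, hedgehog, Notch and TGF-beta pathways went both ways. Wnt5a, a noncanonical Wnt ligand, rose from 13.5 to 16.8 RPKM in GPC to 18.7 to 24.1 in glia, and Fgf12, an intracellular FGF homologous factor, and the glypican Gpc5 rose from low levels. Jag1, a Notch ligand, fell from 7.20 to 8.10 RPKM to 4.44 to 5.26, without overlap. Of 5 such genes tested, 3 rose and 1 fell, and among all genes measured 63 of 139 tested in that list rose (45.3%) and 42 fell (30.2%).

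The largest rises and falls crossed these classes. Thsd4, a matrix protein of the ADAMTS-like group that binds fibrillin, had the largest rise: it stood at 0.155, 0.165, 0.169 and 0.162 RPKM in GPC and 8.10, 7.36 and 6.25 in glia, with a log2 change of 5.41 ± 0.13 (edgeR quasi-likelihood test, adjusted p = 1.44e-09). Nfe2l3, a CNC-type bZIP factor, rose by 3.95 ± 0.21 on the log2 scale (0.242 to 0.397 RPKM in GPC, 3.98 to 5.79 in glia). Crb1, an apical polarity protein, rose by 2.49 ± 0.17, from 0.839 to 1.46 RPKM to 5.88 to 6.45. 2810032G03Rik and Sphkap rose by 3.56 and 2.80, but their 4 GPC libraries held only 15 and 12 reads in all.

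**Figure D3:**
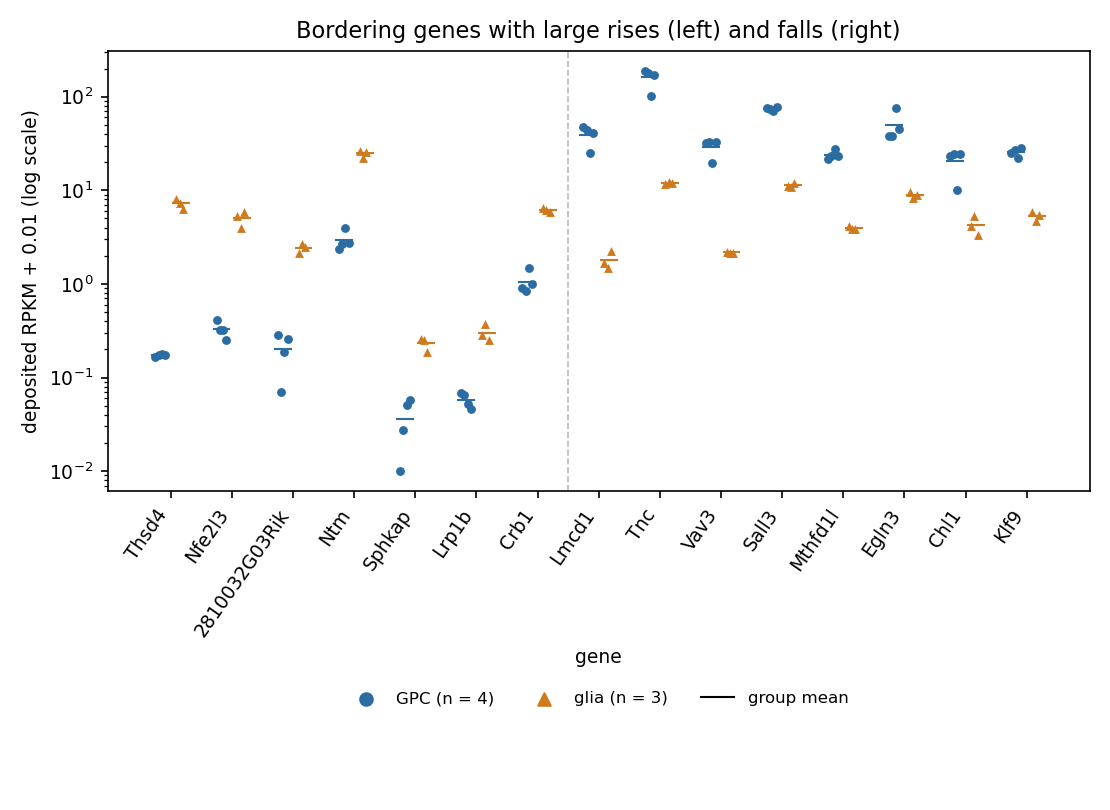
Deposited RPKM plus 0.01 (log axis) in each of the 4 GPC and 3 glia libraries for bordering genes among the 8 largest rises and the 8 largest falls, with lines at group means. The GPC and glia points of each gene are apart because genes were chosen for values without overlap. GPC replicate 3 lies below the other GPC points in Lmcd1, Tnc, Vav3, Sall3, Chl1 and Klf9. It lies above them in Thsd4, Ntm, Crb1, Mthfd1l and Egln3.

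Among the falls, Lmcd1 stood at 47.0, 43.9, 25.2 and 41.4 RPKM in GPC and 1.68, 1.47 and 2.24 in glia, and fell by 4.41 ± 0.27 on the log2 scale (edgeR quasi-likelihood test, adjusted p = 1.25e-06). Tnc, the matrix glycoprotein tenascin C of the progenitor niche, stood at 189, 180, 102 and 170 RPKM in GPC and 11.6, 12.3 and 12.03 in glia. It fell by 3.77 ± 0.22 (edgeR quasi-likelihood test, adjusted p = 9.42e-07). Vav3, a guanine nucleotide exchange factor, stood at 32.1, 32.6, 19.6 and 32.4 RPKM in GPC and 2.19, 2.15 and 2.14 in glia and fell by 3.66 ± 0.20. In the plot of the largest changes GPC replicate 3 is the lowest GPC library for these 3 genes, yet far above glia. Mthfd1l, a mitochondrial folate enzyme, fell by 2.63 ± 0.11, and Egln3, an oxygen-sensing prolyl hydroxylase, by 2.51 ± 0.28, with GPC replicate 3 the highest for Egln3 at 76.4 RPKM against 37.9 to 44.7 in the other GPC libraries.

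The 6 most abundant bordering genes in GPC included a growth factor, a glutamate transporter and RNA-binding and transcription regulators. Ptn, pleiotrophin, a secreted growth factor of neural progenitors, stood at 632, 611, 719 and 617 RPKM in GPC and 199, 174 and 197 in glia, and fell by 1.79 ± 0.09 on the log2 scale (edgeR quasi-likelihood test, adjusted p = 7.72e-08). Slc1a3, the glial glutamate transporter GLAST, stood at 293, 306, 297 and 306 RPKM in GPC and 185, 193 and 168 in glia and fell by 0.75 ± 0.07 (edgeR quasi-likelihood test, adjusted p = 3.62e-06). It is on the astrocyte list, most of which rose. Igfbp3, an IGF-binding protein, and Lmo4, a LIM-only cofactor, fell by 1.93 and 1.78 without overlap, while Qk, an RNA-binding protein of glial cells at 178 to 229 RPKM in GPC and 210 to 243 in glia, did not pass the test (log2 change 0.15 ± 0.10, edgeR quasi-likelihood test, adjusted p = 0.189). Sox4 is the other of the 6.

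Of 21 tested genes with 2 or more far SOX3-only peaks, 9 rose (42.9%) and 6 fell (28.6%), against 38.3% and 31.3% of all tested bordering genes. At 2-fold or more 2 rose (9.52%, against 16.5% of all genes tested) and 1 fell (4.76%, against 9.24%). No difference from the other bordering genes was tested. Ndn, a MAGE-family growth suppressor of neurons and the most abundant of them, stood at 103, 104, 126 and 101 RPKM in GPC and 147, 138 and 157 in glia, and rose by 0.41 ± 0.09 on the log2 scale (edgeR quasi-likelihood test, adjusted p = 0.00246). Rnf144a, a ubiquitin ligase, rose from 16.8 to 20.95 RPKM to 33.1 to 35.7, and Irx1 from 16.4 to 21.2 to 24.4 to 31.1. Cobl, with both peaks beyond 1000 kb, rose by 1.88 ± 0.12, from 0.762 to 0.796 RPKM to 2.68 to 3.16.

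**Figure D4:**
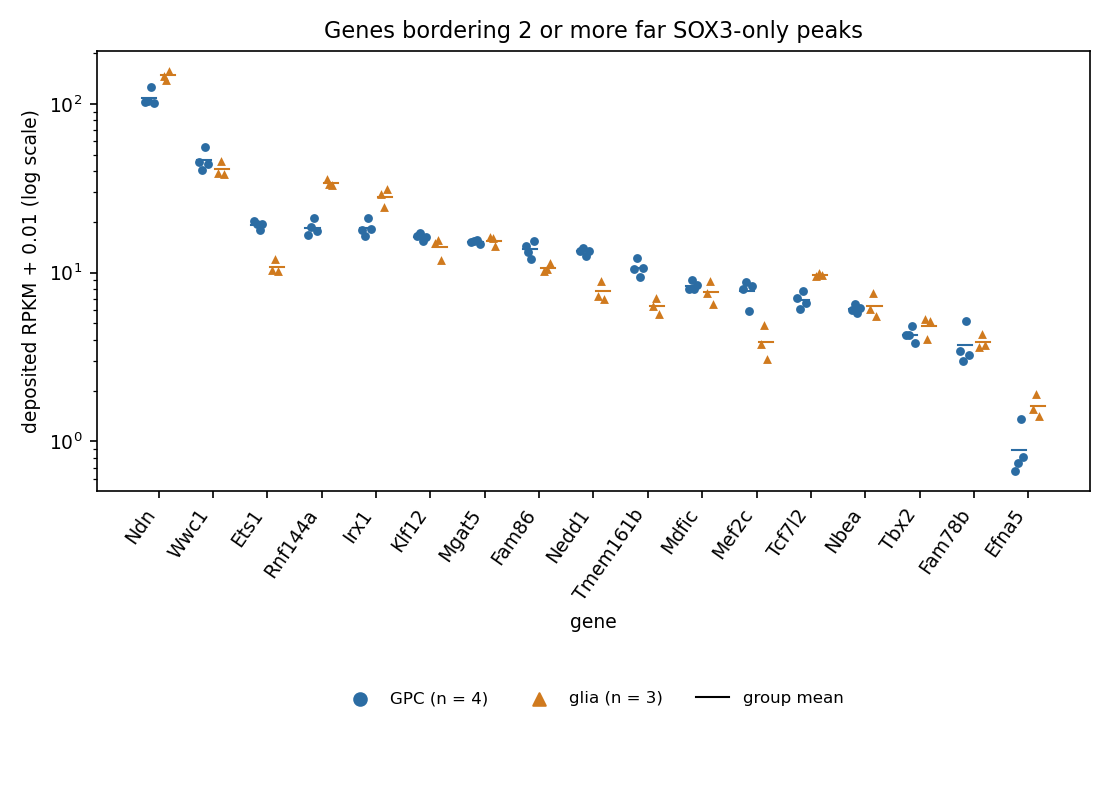
Deposited RPKM plus 0.01 (log axis) in each of the 4 GPC and 3 glia libraries for 17 bordering genes with 2 or more far SOX3-only peaks, with lines at group means. The GPC and glia points of Wwc1, Klf12, Mgat5, Mdfic, Nbea, Tbx2 and Fam78b overlap.

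Falls among the genes with several peaks are visible in the plot of these genes as well. Mef2c, a MADS-box factor, stood at 7.95, 8.81, 5.95 and 8.35 RPKM in GPC and 3.74, 4.86 and 3.08 in glia and fell by 1.05 ± 0.17 on the log2 scale (edgeR quasi-likelihood test, adjusted p = 0.000367). Nedd1, a centrosomal protein of dividing cells, and Tmem161b fell by 0.83 ± 0.09 and 0.78 ± 0.11. Fam86, with 3 peaks, fell by 0.38 ± 0.11 (edgeR quasi-likelihood test, adjusted p = 0.00824). Tcf7l2, the Wnt-pathway factor, rose by 0.41 ± 0.10, from 6.05 to 7.75 RPKM to 9.49 to 9.97. Among the genes that did not pass the test were Wwc1, Mgat5, Mdfic, Nbea, Tbx2 and Fam78b, with log2 changes between -0.22 and 0.16.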

How the data were processed

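The read counts per gene were deposited by the authors without normalization, and the RPKM values were computed by the authors per the file headers; the genome build, mm9, is named in the submitters' processing notes. The peak lists were deposited by the authors as intervals; MACS and MACS2 are named in the submitters' processing notes, and the rule by which the authors assigned genes and signed distances to SOX3 peaks was not stated in the labels or headers, nor were the aligner and the use of strand. NFIA peaks have a deposited score whose meaning was not stated and which was not used. Each factor has 1 list over its samples, so peak replicates could not be compared. A positive distance was downstream along the strand in 107 of 108 genes with 2 or more peaks and 1 strand. Peaks shared bases by position. Of the gene names 244 matched the expression table directly and 4 by a synonym through RefSeq names of assembly GRCm38.p6.

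Counts were tested on the whole table with edgeR 4.0.16 (R 4.3.3): TMM scaling, filterByExpr, robust quasi-likelihood test, two-sided, Benjamini-Hochberg adjustment over 13588 genes, threshold 0.05. The test was checked on simulated counts. Levels are deposited RPKM. Alternatives used DESeq2 1.42.0, other scalings and filters, other distance limits, a replicate block and libraries left out in turn.

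The peaks and gene lists were chosen with earlier results of these data known. Genes were named by a rule: 20 genes with 2 or more peaks, by number of peaks and then GPC level; the 8 largest rises and 8 largest falls without overlap; the 6 highest in GPC; the genes of the 5 widest and 5 most distant peaks; and members of gene families. Sequences of the peaks and H3K27Ac samples were not analysed here. Some named genes are not reported here.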

Additional observations from a re-analysis of the deposited data

Results flagged for a closer look

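Of 45 genes looked at for a library far from the others of its group, 3 passed the limit, all in GPC replicate 3. By chance about 1 in 20 passes, so the number itself is near that rate. Ndn was at 126.0 RPKM there against 101 to 104 in the other GPC libraries. Vav3 was at 19.6 RPKM against 32.1 to 32.6. Chl1 was at 10.05 RPKM against 23.1 to 24.6. Sox3, Sox9 and Nfia were not among the 45 genes, and GPC replicate 3 was their highest GPC library. Sox3 was at 122 RPKM there against 66.6 to 72.3, Sox9 at 62.7 against 52.5 to 53.9 and Nfia at 15.8 against 10.4 to 11.2. GPC replicate 3 was also the most deeply sequenced library, at 22439837 reads in genes, and its counts differed from the other GPC libraries by a chi-square per gene of 25.8 to 29.9, against 2.05 to 3.59 among the other 3. Its part in these values was not tested. Without it the log2 changes of Ndn, Vav3 and Chl1 kept their direction.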

How the results depend on the processing

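The distance limit set the size of the set. Above 50 kb there were 509 peaks at 418 genes, with 268 at 1 RPKM or more in GPC, 119 that rose and 99 that fell. Above 200 kb there were 176 peaks at 147 genes, with 92, 40 and 34. Other settings kept the counts of rises and falls within 1.5 times. Leaving out each library in turn gave 73 to 84 rises and 56 to 67 falls, and kept 128 to 138 of the 140 calls. With a replicate block 78 rose and 59 fell (4518 and 4382 over all genes), and 133 of 140 calls were kept. With the block edgeR's adjusted p was 0.0545 for Pcdh7, 0.0666 for Gata3 and 0.0700 for Klf6, which ended these 3 calls. The numbers were not taken to pair the samples: deviations of same-numbered GPC and glia libraries correlated at -0.02, 0.14 and 0.07 for numbers 1 to 3. Over 42 named genes and 542 alternative values, 514 kept direction and side of the threshold, 12 lost the call (Efna5, Klf12, Pcdh7), 2 gained it (Mdfic, Qk) and 14 changed sign, all in genes that did not pass the test. With at least 50 counts in 3 libraries Mgat5 stood at 0.0263 and Fam78b at 0.0132, and with upper quartile scaling at 0.0339 and 0.0234. Leaving out each library in turn gave -0.0505 to 0.0446 for Mgat5, -0.0930 to 0.121 for Nbea, -0.115 to 0.187 for Fam78b and -0.0401 to 0.208 for Sox4, all log2 changes. The cause of these shifts was not tested. A stricter peak score was not run, since the SOX3 list carries no score. Genes under the filter on low counts have no test, and the depth of the ChIP samples does not enter the lists.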
